A study of Mus musculus with 24 samples.

Results

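The genes described here encode G-protein coupled receptors, the membrane receptors through which cells read adrenaline, serotonin, acetylcholine, adenosine, prostaglandin E2, lysophospholipids and proteases, together with the large group of receptors that carry only a Gpr number. They were taken from the deposited table by gene name alone: any symbol that starts with Gpr and a digit, and the adenosine (Adora), adrenergic (Adra and Adrb), serotonin (Htr), prostaglandin E2 (Ptger), lysophosphatidic acid (Lpar), sphingosine 1-phosphate (S1pr), muscarinic (Chrm) and protease-activated (F2r) receptor genes. This gave 144 of 28109 rows, with 142 different symbols, and no measured value was used to choose them. By family they comprise 9 adrenergic, 11 serotonin, 5 muscarinic, 5 adenosine, 4 prostaglandin E2, 6 lysophosphatidic acid, 5 sphingosine 1-phosphate, 4 protease-activated, 18 adhesion and 3 class C orphan receptor rows, and 65 other rhodopsin-like or orphan receptors. The remaining 9 are named Gpr but are not classed as G-protein coupled receptors (Gpr89, Gpr107, Gpr108, Gpr137, Gpr137b, Gpr137b-ps, Gpr137c, Gpr155 and Gpr180). The serotonin rows Htr3a and Htr3b, which were too low to be tested, encode subunits of a ligand-gated ion channel, so the label does not hold for every member.

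RNA-seq was performed in the mouse myoblast line C2C12, of C3H origin, and in primary myoblasts (PMs) isolated from 3 to 4 week-old C57/B6 wild type mice. Each was transfected with siControl, named siLuc in the labels, or with siTead1/4, a mixture of siRNAs against the transcription factors Tead1 and Tead4. RNA was taken from undifferentiated cells at day 0, which was 24 hours after transfection, and after 3 and 6 days in medium with 2% horse serum, in 2 biological replicates per group and 24 libraries in all. C2C12 is 1 cell line, and the cell types also differ in mouse strain, growth medium and culture surface, which cannot be told apart from cell type here.

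A G-protein coupled receptor crosses the membrane in a bundle of helices and, once its ligand is bound, activates a heterotrimeric G-protein. The alpha subunit sets the output: Gs raises and Gi lowers cyclic AMP, Gq activates phospholipase C and calcium release, and G12/13 acts on the cytoskeleton. RGS proteins end the signal by speeding GTP hydrolysis, and receptor kinases and arrestins switch off the receptor. In skeletal muscle, beta-adrenergic signalling through cyclic AMP is known for its effects on muscle mass, and the lysophospholipid and protease receptors that couple to G12/13 are known regulators of Yap and Taz, the coactivators of the Tead factors.

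Libraries held 25453830 to 52784510 counts in C2C12 cells and 32571583 to 51110723 in PMs, and receptor genes took 0.0853 to 0.166% of them. Levels are given as CPM (counts-per-million on TMM-normalised library sizes), always with replicate 1 before replicate 2, and 3 counts correspond to 0.0533 to 0.110 CPM. In the siControl PMs, Tead4 stood at 64.2 and 59.5 CPM at day 0, 194 and 197 at day 3, then 163 and 173 at day 6, against 13.2 and 11.1, 30.6 and 35.2, and 40.8 and 59.2 with siTead1/4. In C2C12 cells the siControl values were 18.7 and 21.2, 111 and 147, and 86.5 and 150, against 4.37 and 4.28, 26.1 and 51.4, and 39.7 and 57.1. Tead4 was thus lower with siTead1/4 at every day in both cell types with no overlap of the libraries. Tead1 in PMs stood at 172 and 151, 289 and 278, and 283 and 175 CPM with siControl and at 69.8 and 50, 99.6 and 78, and 142 and 71.3 with siTead1/4. In C2C12 cells it stood at 70.5 and 113, 95.6 and 151, and 76 and 136 CPM against 28.8 and 4.5, 66.9 and 51.1, and 70.6 and 77, so that the libraries overlapped at day 6. By edgeR's quasi-likelihood test with Benjamini-Hochberg adjustment, Tead4 changed by -2.36, -2.58 and -1.75 (log2, days 0, 3 and 6) in PMs with adjusted p of 0.000262, 9.25e-05 and 0.00199, and by -2.21, -1.76 and -1.28 in C2C12 cells with adjusted p of 0.036, 0.0425 and 0.318. The corresponding Tead1 changes were -1.44, -1.68 and -1.10 in PMs (adjusted p = 0.0211, 0.0107 and 0.143) and -2.46, -1.09 and -0.52 in C2C12 cells (adjusted p = 0.168, 0.501 and 0.945).

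As a check of the cell types, all 6 listed myogenic genes (Myod1, Myf5, Myog, Des, Pax7 and Cdh15) were detected, with summed levels of 622 to 6096 CPM in C2C12 cells and 3946 to 8801 CPM in PMs. In C2C12 cells at day 3 this sum was 5071 and 4945 CPM with siControl and 2482 to 3758 CPM with siTead1/4. The 8 macrophage genes in the table summed to 3.43 to 9.43 CPM, with Ptprc and Emr1 at 3 counts or fewer in every library, and 5 adipocyte genes to at most 1.69 CPM. The 8 endothelial genes summed to 0.256 to 1.53 CPM in C2C12 cells (Emcn at 3 counts or fewer in every library), to 5.66 to 17.6 CPM in the 6 PM libraries of replicate 1 and to 3.21 to 5.53 CPM in the 6 of replicate 2. Fibroblast genes, which myoblast cultures also express, summed to 839 to 3657 CPM in C2C12 cells and 552 to 3871 CPM in PMs, pericyte and smooth muscle genes to 51.1 to 86.6 and 131 to 345 CPM, and the 6 Schwann cell genes to 8.27 to 399 and 95 to 377 CPM. Of these Erbb3 had 106 to 19616 counts per library, while Sox10 and Cdh19 had at most 1 count in every C2C12 library, 46 to 141 counts in the PM libraries of replicate 1 and 2 to 12 in those of replicate 2. In bulk samples such as these, fewer cells of a type and less RNA per cell cannot be told apart.

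Tead factors bind the MCAT element, CATTCCA or CATTCCT, so the promoters of the receptors called in more than 1 siTead1/4 comparison are shown: Htr2b, Gpr37 and Adora1. Each line is a RefSeq window of 300 bases on the gene's own strand, from 250 bases before to 50 after the transcription start in GRCm38.p6, with an MCAT element in capitals where there is one. The windows are chr1:86111931-86112230 for Htr2b, chr6:25689931-25690230 for Gpr37, and chr1:134235408-134235707 and chr1:134234807-134235106 for 2 starts of Adora1, all on the minus strand.
Htr2b: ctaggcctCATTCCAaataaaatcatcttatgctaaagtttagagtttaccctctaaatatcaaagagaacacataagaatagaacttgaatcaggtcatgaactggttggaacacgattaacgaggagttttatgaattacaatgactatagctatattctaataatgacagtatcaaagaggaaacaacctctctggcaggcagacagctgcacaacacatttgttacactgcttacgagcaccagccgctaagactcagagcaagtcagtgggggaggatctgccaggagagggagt
Gpr37: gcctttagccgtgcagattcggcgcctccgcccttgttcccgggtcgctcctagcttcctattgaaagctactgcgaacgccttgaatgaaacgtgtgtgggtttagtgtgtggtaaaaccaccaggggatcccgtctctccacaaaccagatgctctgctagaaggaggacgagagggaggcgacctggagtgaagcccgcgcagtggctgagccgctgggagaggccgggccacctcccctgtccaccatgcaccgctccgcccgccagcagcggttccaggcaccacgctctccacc
Adora1, first start: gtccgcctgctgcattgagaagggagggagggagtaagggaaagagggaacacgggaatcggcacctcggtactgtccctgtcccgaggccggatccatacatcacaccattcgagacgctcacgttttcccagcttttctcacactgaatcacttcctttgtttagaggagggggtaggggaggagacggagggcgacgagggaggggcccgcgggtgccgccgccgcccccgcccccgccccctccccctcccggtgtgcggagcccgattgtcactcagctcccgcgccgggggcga
Adora1, second start: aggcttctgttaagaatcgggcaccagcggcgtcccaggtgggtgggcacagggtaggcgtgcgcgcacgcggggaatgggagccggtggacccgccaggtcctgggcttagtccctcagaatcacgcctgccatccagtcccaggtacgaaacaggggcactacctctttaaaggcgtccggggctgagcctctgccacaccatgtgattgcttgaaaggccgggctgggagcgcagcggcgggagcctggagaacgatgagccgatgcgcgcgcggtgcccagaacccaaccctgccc
Htr2b held CATTCCA with its first base 242 bases before the start. The Gpr37 window and both Adora1 windows held neither form on either strand. Of the receptor genes, 104 of 144 could be matched to the promoter table, and 6 of those (5.77%) held an MCAT element on either strand, against 2878 of 27025 genes (10.6%) in the whole table. Besides Htr2b these were Htr1d, Gpr19, Gpr35, Gpr77 and Gpr142. Of the members called under siTead1/4 or in the difference between cell types, 9 had a window and 1 of them, Htr2b, held the element. A match is a run of letters and says nothing of binding.

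Most receptor genes were low. Of the 144, 3 had no count in any library, 28 had at most 3 counts in every library, and 38 had a mean above 1 RPKM (CPM per kb of exon, here the scale for comparing genes) over the 24 libraries, of which 19 were above 5. F2r, the thrombin receptor PAR1, had the highest mean RPKM of the 144 at 62.7 (range over libraries 24.96 to 130). It was followed by Gpr108 (24.2), a Golgi-resident membrane protein, by the adhesion receptor Gpr125 (20.7), by Lpar1 (20.4), the most widely expressed lysophosphatidic acid receptor, and by Gpr107 (13), a relative of Gpr108. The next 5 by this mean over unlike groups were the adhesion receptor Gpr97 at 10.6 RPKM (45.6 in C2C12 siControl cells at day 0 and 0 in siControl PMs at day 6), Gpr124 at 9.82, the lysosomal protein Gpr137b at 9.62, Gpr56 at 9.59 and Gpr180 at 8.69. Members that led other families included Ptger1 (8.33 RPKM) among prostaglandin E2 receptors, Gpr153 (7.73) among the other rhodopsin-like receptors, Adora2b (7.11) for adenosine, although Adora1 was above it in siControl PMs at days 3 and 6 (5.63 and 6.80 against 3.15 and 2.57 RPKM), S1pr2 (6.83) for sphingosine 1-phosphate and Htr2b (3.69) for serotonin. Chrm3, at a mean of 0.276 RPKM, was the highest muscarinic member. After the filter on low counts, 79 receptor genes were tested in C2C12 cells, 87 in PMs and 92 over all libraries.

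**Figure D1:**
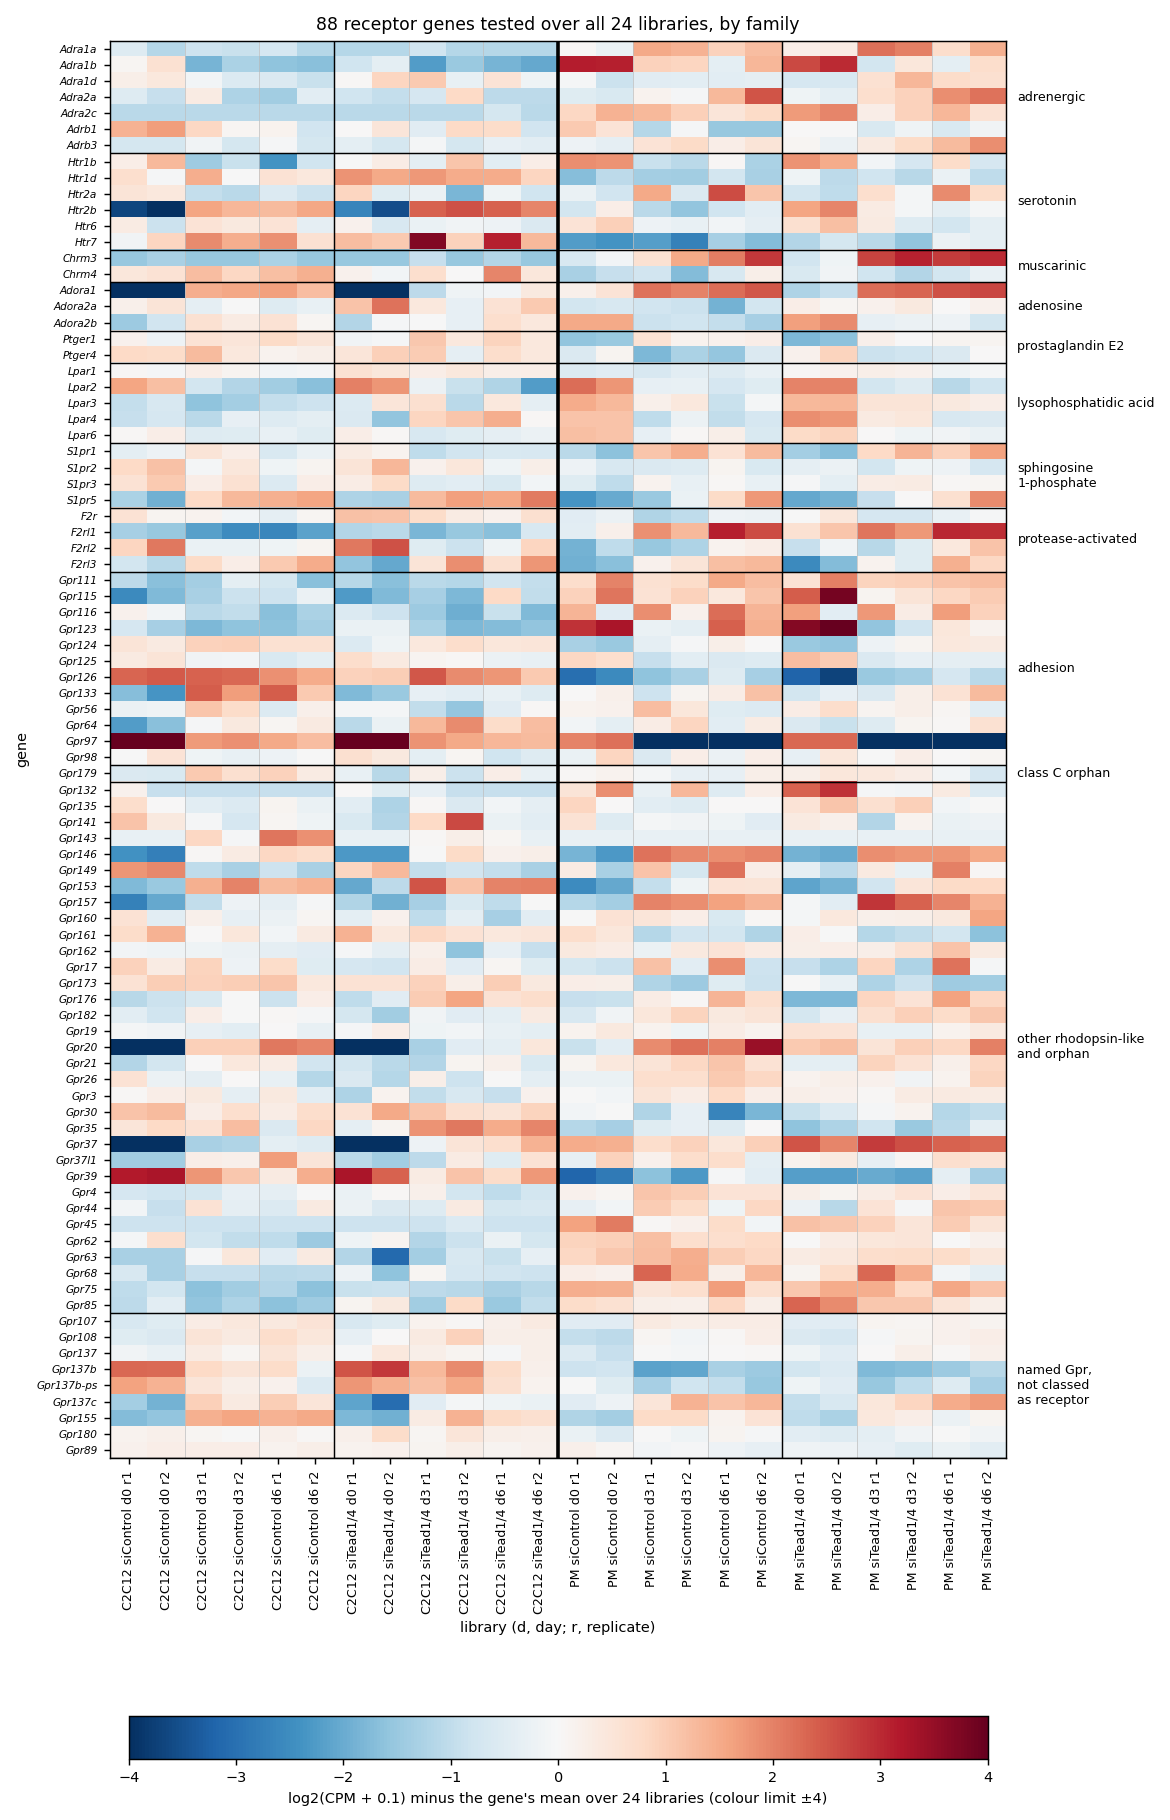
Level of 88 of the 92 receptor genes tested over all 24 libraries, as log2(CPM + 0.1) minus the gene's mean over the libraries, with 1 row per gene grouped by family and 1 column per library (C2C12 left, PM right of the heavy line). Blocks of contrasting colour between the cell types stand at Gpr126, Gpr39 and Adra2c, and blocks that change between day 0 and the later days stand at Gpr97, Gpr146 and Gpr20.

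The first comparison asked which receptor genes changed when Tead1 and Tead4 were silenced. A gene was called when its adjusted p over all genes tested was under 0.05 and its log2 fold change exceeded 1 in size. In C2C12 cells none of the 79 receptor genes tested was called at day 0, 5 fell at day 3, and none was called at day 6, against 0.438%, 1.27% and 0.0457% of all genes. The 5 are 6.33% of the members tested. At days 0 and 6, where edgeR made no call, 14 and 13 receptor genes had an unadjusted p under 0.05 (17.7% and 16.5% of those tested, against 10.5% and 6.95% of all genes). DESeq2 called 2, 11 and 4 at days 0, 3 and 6, which is 3.03%, 16.4% and 5.26% of those with an adjusted p, against 1.84%, 4.18% and 0.93% of all genes. Of these DESeq2 calls, 1 rose and 1 fell at day 0, 5 rose and 6 fell at day 3, and 1 rose and 3 fell at day 6. In PMs 4 of 87 rose and 1 fell at day 0, 4 rose at day 3 and 1 rose at day 6, which is 5.75%, 4.6% and 1.15% of the members against 2.6%, 3.3% and 0.743% of all genes. Same-numbered PM libraries deviated together, and 8, 8 and 4 were called once replicate was blocked (9.2%, 9.2% and 4.6%, against 3.63%, 4.91% and 1.8% of all genes). The calls made without the block were all among these. The median log2 fold change of the members in PMs was 0.10, 0.12 and 0.11 at days 0, 3 and 6, against -0.01, 0.01 and 0.00 for all genes, and in C2C12 cells it was 0.01, 0.05 and 0.04 against 0.02, 0.01 and 0.01.

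**Figure D2:**
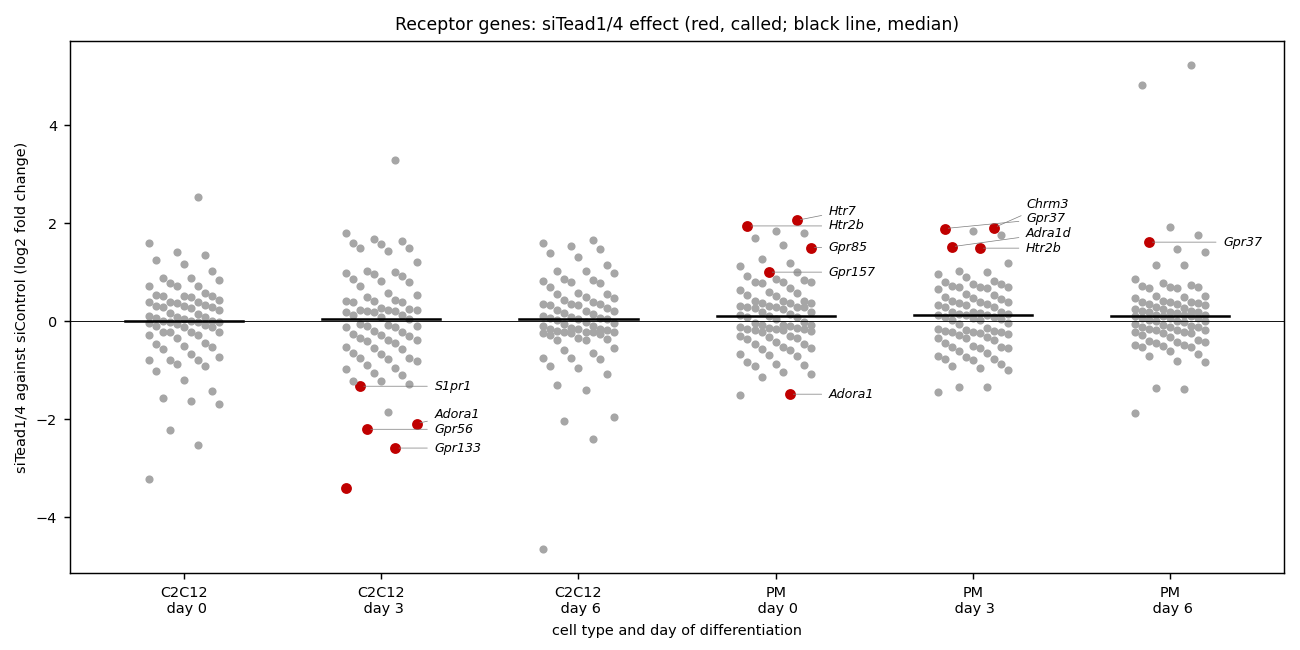
Log2 fold change of siTead1/4 against siControl for each tested receptor gene (points), by cell type and day, with genes called by edgeR in red and the median as a black line. The called genes lie below 0 in C2C12 cells at day 3, and all but Adora1 lie above 0 in PMs.

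Among the receptors that fell in C2C12 cells at day 3 were members of the adhesion family, whose long extracellular parts bind matrix and neighbouring cells. Gpr56, an adhesion receptor known from cortical development and reported to act in myoblast fusion, was at 63.3 and 48.8 CPM with siControl and at 14.6 and 10 CPM with siTead1/4. The day 0 libraries held 24.9 and 26.2 against 27.8 and 27.6 CPM, and those of day 6 held 20.2 and 33.4 against 21.5 and 30.1 CPM. The siControl libraries therefore peaked at day 3, the siTead1/4 libraries dipped there, and the groups overlapped at day 6. The day 3 change was -2.21 ± 0.30 (log2 ± SE, adjusted p = 0.0135). Gpr133, which couples to Gs, was at 8.66 and 5.02 CPM against 1.19 and 1.11 CPM at day 3. The groups did not overlap, and the change was -2.59 ± 0.49 (adjusted p = 0.0372). S1pr1, the Gi-coupled sphingosine 1-phosphate receptor, stood at 21.7 and 18.2 CPM with siControl and at 7.43 and 8.75 with siTead1/4, a change of -1.33 ± 0.21 (adjusted p = 0.0207). In PMs the same 3 genes were not called at day 3: Gpr56 changed by -0.73, Gpr133 by 0.14 and S1pr1 by -0.18 (adjusted p = 0.101, 0.898 and 0.786). By edgeR the difference between the cell types did not pass the threshold at day 3 for Gpr56 (adjusted p = 0.0867), Gpr133 (0.0721) or S1pr1 (0.192). DESeq2 called this difference for Gpr56 and Gpr133, and the replicate block called it for Gpr133. Neither setting called it for S1pr1.

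The 5 day 3 calls rest on few libraries. Fitted with only the 4 libraries of the comparison, none of them passed. Leaving out siControl replicate 1, siControl replicate 2 or siTead1/4 replicate 2 of day 3 removed all 5, and leaving out siTead1/4 replicate 1 removed Adora1 and Gpr133 but not Gpr56 or S1pr1. The log2 fold changes without a library ranged from -2.50 to -1.95 for Gpr56, from -2.93 to -2.16 for Gpr133 and from -1.45 to -1.20 for S1pr1, so the direction held in each.

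Adora1, the Gi-coupled adenosine A1 receptor, was called in both cell types but at different days. In C2C12 cells at day 3 it was at 21 and 22.2 CPM with siControl and at 3.6 and 6.74 with siTead1/4, and at day 6 at 24.1 and 18.1 against 7.09 and 9.95 CPM. In PMs it was at 8.71 and 11.2 against 3.17 and 3.93 CPM at day 0, at 34.6 and 30.6 against 36 and 38.5 CPM at day 3, and at 35.8 and 42.8 against 44.9 and 48.7 CPM at day 6. The siTead1/4 libraries were thus the lower ones in C2C12 cells at days 3 and 6 and in PMs at day 0. In PMs at days 3 and 6 they were the higher ones. The changes were -2.09 ± 0.37 in C2C12 cells at day 3 (adjusted p = 0.0326), -1.30 at day 6 (0.342) and -1.49 ± 0.17 in PMs at day 0 (0.00137), with 0.19 and 0.25 in PMs at days 3 and 6 (0.536 and 0.604). DESeq2 also called the C2C12 change at day 6. The effect in PMs minus that in C2C12 cells was 2.25 at day 3 (adjusted p = 0.0082), and without PM siControl replicate 2 of day 3 it no longer passed (adjusted p = 0.0509). The day 0 call in PMs held in 11 of 11 alternative settings, with log2 fold changes of -1.66 to -1.30.

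Adora1 (mm9 chr1:136095800-136132008, minus strand) shares 661 exon bases, 11.4% of its exon length, with Mybph on the opposite strand, a myosin-binding protein gene, and these libraries do not keep the strand. In C2C12 cells Mybph had mean levels of 3.03, 1606 and 1712 CPM at days 0, 3 and 6 with siControl and 0.888, 386 and 674 CPM with siTead1/4. In PMs the means were 262, 1361 and 1675 against 86.1, 1570 and 1647 CPM. Mybph was therefore low in the same groups as Adora1. At days 3 and 6 in C2C12 cells there were 9.94 to 15.8 Adora1 counts per 1000 Mybph counts over both siRNA groups, and in PMs at day 0 34.1 and 41.9 with siControl against 37.4 and 45.1 with siTead1/4. Mybph fell by 1.61 (log2) in PMs at day 0 (adjusted p = 0.000181). The part of Mybph reads in the Adora1 counts was not tested. Myog, the myogenic regulator, lies 54.6 kb from Adora1.

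**Figure D3:**
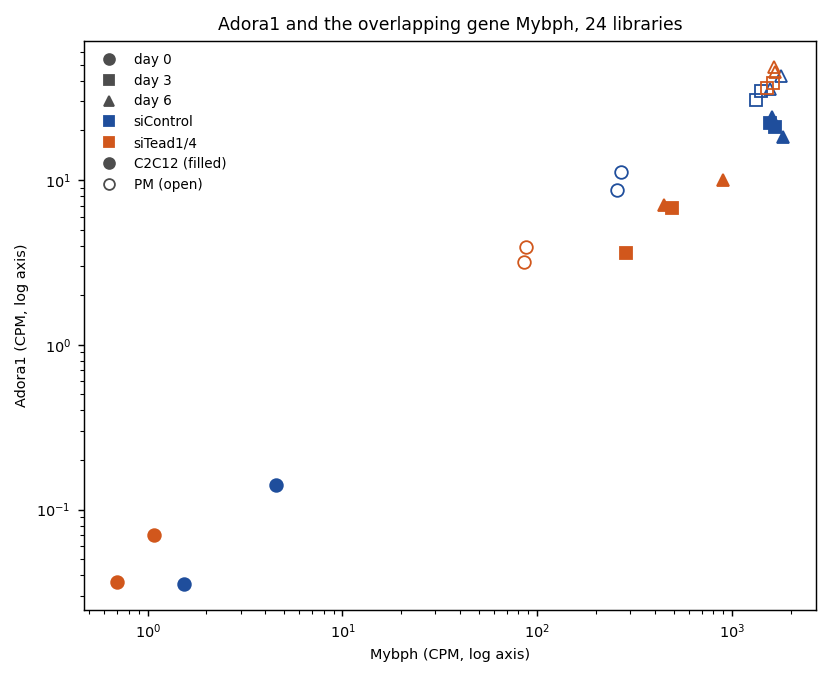
Adora1 against Mybph in each of the 24 libraries, both in CPM on log axes, with cell type, siRNA and day marked by fill, colour and shape. The libraries of days 3 and 6 of both siRNA groups lie along 1 line in C2C12 cells, at 9.94 to 15.8 Adora1 counts per 1000 Mybph counts, and along a higher one in PMs, at 22.95 to 29.8.

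In PMs other marker sums moved with the siRNA at day 0, from 131 and 147 to 214 and 204 CPM for pericyte and smooth muscle genes, from 552 and 565 to 868 and 809 CPM for fibroblast genes and from 146 and 135 to 112 and 95 CPM for Schwann cell genes. Single genes carried much of each sum. In counts not scaled for depth, Rgs5 went from 2554 and 2846 to 5646 and 6554. Col3a1 went from 21418 and 17653 to 31805 and 37259, and Erbb3 from 6044 and 4390 to 3971 and 4147. The Schwann cell genes Sox10 and Cdh19 had 52 and 5 against 61 and 11, and 46 and 5 against 61 and 6 counts. The part of such marker genes in the receptor changes was not tested.

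In PMs the receptors that rose under siTead1/4 included 2 for serotonin. Htr2b, which couples to Gq, was at 2.42 and 4.93 CPM with siControl and at 12.2 and 16.1 with siTead1/4 at day 0, at 1.88 and 1.29 against 5.13 and 3.81 at day 3, and at 2.3 and 3 against 3.06 and 3.87 at day 6. No siTead1/4 library overlapped a siControl library at any of the 3 days. The changes were 1.95 ± 0.34 (adjusted p = 0.00877), 1.49 ± 0.36 (0.0323) and 0.39 (0.78). In C2C12 cells Htr2b stood at 12.3 and 10.4 against 21.3 and 24.2 CPM at day 3, a change of 0.97 that did not pass (adjusted p = 0.14). Without 1 library the PM change ranged from 1.52 to 2.54 at day 0, where the call was lost without siControl replicate 1 or siTead1/4 replicate 2, and from 1.24 to 1.79 at day 3, where it was lost without any 1 of the 4 libraries. Htr2b shares 11.8% of its exon length with Psmd1 on the opposite strand, a proteasome gene that was not called in any comparison with siTead1/4. Psmd1 was at 406 and 478 CPM in the C2C12 siControl libraries of day 0, where Htr2b was at 0.225 and 0.142 CPM. Htr7, a Gs-coupled serotonin receptor, was near the detection limit in PMs at day 0, at 0.106 and 0.0845 CPM against 0.329 and 0.494, a change of 2.06 ± 0.48 (adjusted p = 0.0294) that was lost without any 1 of the 4 libraries.

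Gpr37, an orphan receptor known as a substrate of the ubiquitin ligase parkin, was raised in PMs throughout differentiation. It was at 8.18 and 7.91 CPM with siControl and at 16.8 and 11.6 CPM with siTead1/4 at day 0, at 4.77 and 5.53 against 20.7 and 17.8 at day 3, and at 3.98 and 5.64 against 15.4 and 14.1 at day 6. The groups did not overlap at any day. The changes were 0.80 (adjusted p = 0.0433, under the fold threshold), 1.89 ± 0.22 (0.00111) and 1.61 ± 0.22 (0.00797). The day 3 call held in 11 of 11 alternatives, and that of day 6 was lost with only its own 4 libraries and without siControl replicate 1 or siTead1/4 replicate 1, with values of 1.38 to 1.89 without a library. In C2C12 cells Gpr37 was at 1.11 and 1.19 against 2.46 and 4.17 CPM at day 3 and at 2.16 and 1.97 against 4.67 and 7.71 CPM at day 6. These changes of 1.49 and 1.59 did not pass by edgeR (adjusted p = 0.12 and 0.289), while DESeq2 called Gpr37 there at both days. The difference between the cell types was 0.38 at day 3 and 0.03 at day 6 (adjusted p = 0.81 and 1).

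The other receptors that rose in PMs were Gpr85 and Gpr157 at day 0 and Chrm3 and Adra1d at day 3. Gpr85, a conserved orphan receptor of the brain, was at 1.7 and 1.55 against 5.36 and 3.93 CPM, a change of 1.504 ± 0.26 (adjusted p = 0.00886). Gpr157, another orphan receptor, was at 4.89 and 4.2 against 10.2 and 8.16 CPM, a change of 1.002 ± 0.23 (adjusted p = 0.0287) that lay at the fold threshold and was lost in 8 of 11 alternatives. Chrm3, the Gq-coupled muscarinic receptor, was at 0.337 and 0.733 against 1.78 and 2.32 CPM, and Adra1d, an alpha-1 adrenergic receptor that also couples to Gq, at 1.04 and 1.06 against 2.25 and 3.84 CPM. In none of the 4 did the groups overlap at the day of the call. The Chrm3 change was 1.91 ± 0.44 (adjusted p = 0.0272) and that of Adra1d 1.52 ± 0.33 (0.0225), and each was lost with only the 4 libraries of the comparison. Leaving out single libraries of the comparison gave 1.26 to 1.71 for Gpr85, 0.83 to 1.16 for Gpr157, 1.47 to 2.58 for Chrm3 and 1.09 to 1.85 for Adra1d. Gpr85 kept its call only without siTead1/4 replicate 2, Chrm3 only without siControl replicate 2, Adra1d only without siTead1/4 replicate 1, and Gpr157 under none of these. Some receptors passed the adjusted p but not the fold in PMs: Lpar1 rose by 0.59 and 0.71 at days 0 and 3 (adjusted p = 0.0141 and 0.0062) and Lpar4 by 0.99 at day 3 (0.0279), a change of 1.01 that was called with the replicate block (0.00929). The block also added calls for Gpr20, a receptor named after its values were seen, which was higher with siTead1/4 at day 0 (1.83, adjusted p = 0.00387 with the block and 0.0529 without) and lower at days 3 and 6 (-1.35 and -1.33, adjusted p = 0.0108 and 0.0253 with the block and 0.113 and 0.233 without).

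**Figure D4:**
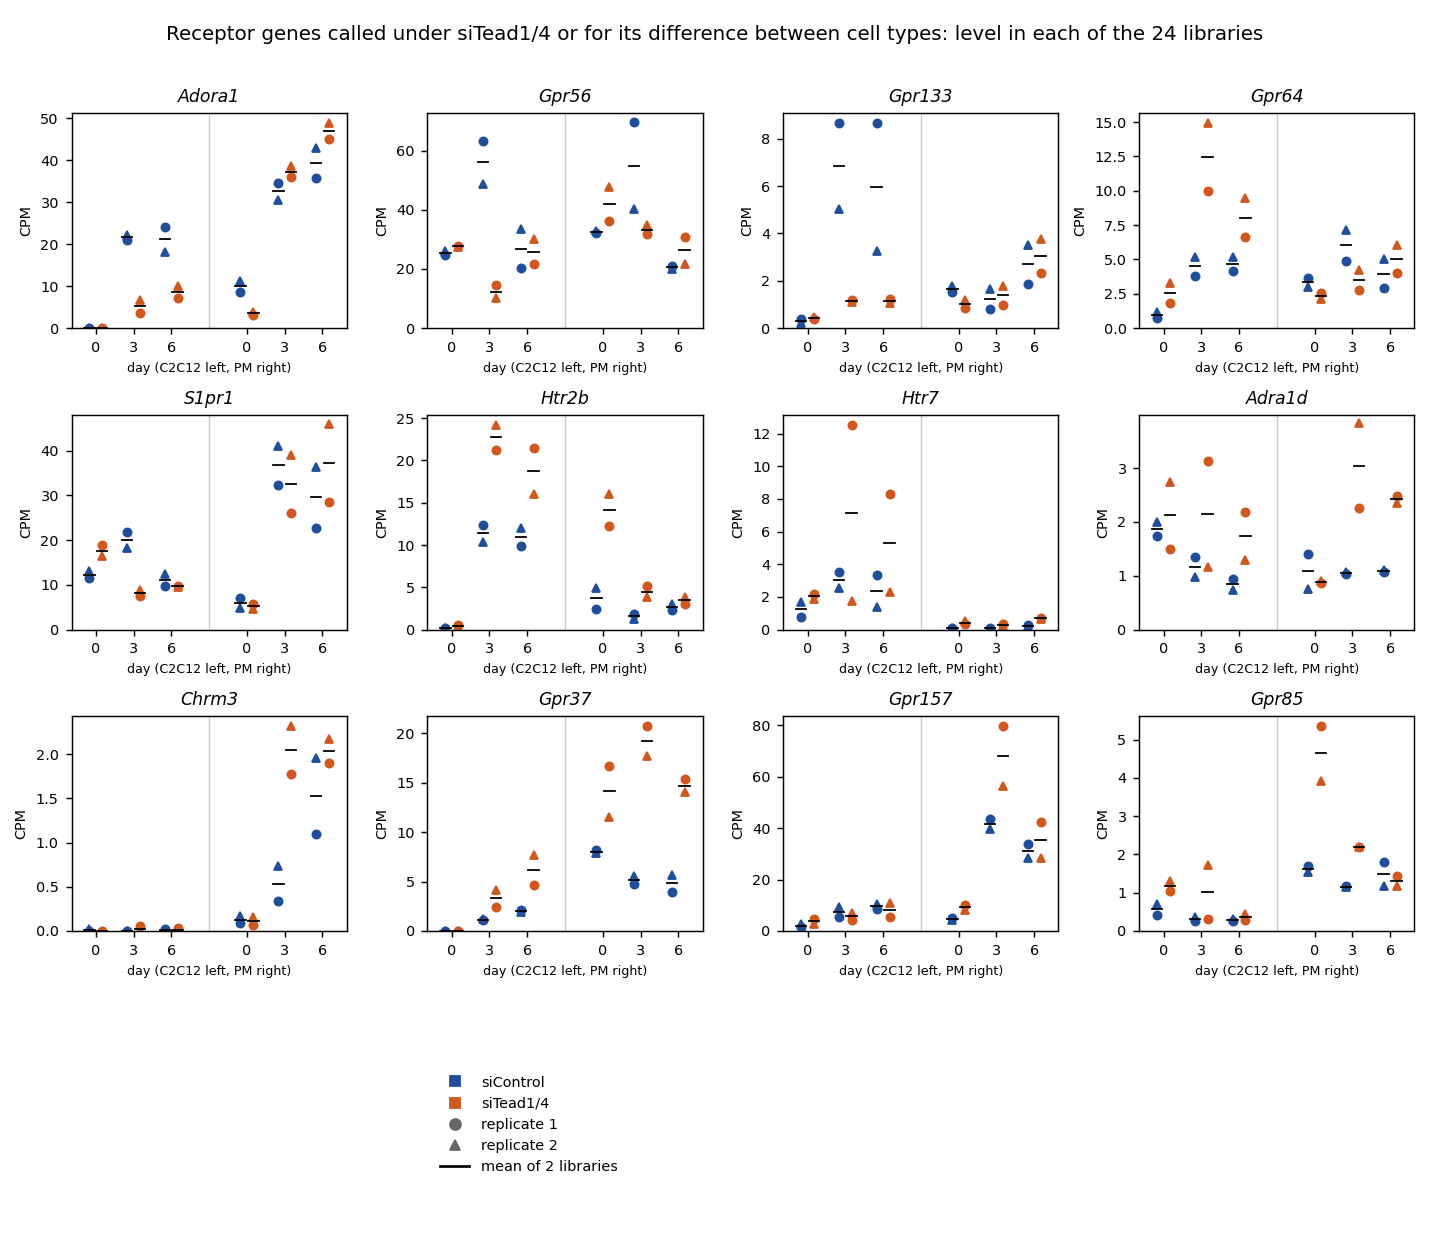
Level in CPM of 12 receptor genes called under siTead1/4 or, for Gpr64, for the difference of its effect between cell types, in each of the 24 libraries, 1 panel per gene, with day on the x axis (C2C12 left, PM right), siControl in blue, siTead1/4 in orange, replicates 1 and 2 as circles and triangles and the mean of the 2 libraries as a bar. On the PM side of its panel Gpr37 with siTead1/4 lies above siControl at each day, while Gpr56 in C2C12 cells parts between the siRNAs at day 3 and not at days 0 or 6.

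Tested directly, the siTead1/4 effect differed between PMs and C2C12 cells for 2 of 92 receptor genes at day 3 and for none at days 0 and 6, against 1.25%, 0.00591% and 0.0354% of all genes at days 3, 0 and 6. At days 0 and 6, 6 and 8 receptor genes had an unadjusted p under 0.05 (6.52% and 8.7%, against 4.28% and 5.41% of all genes), and DESeq2 called none and 1, against 0.192% and 0.385% of all genes. At day 3 DESeq2 called 5 (6.85% of those with an adjusted p, against 3.28% of all genes). The replicate block moved the count at day 3 to 4 (4.35%, against 1.93% of all genes). Adora1 was one of the 2 called by edgeR without the block, and Gpr64 the other. Gpr64, an adhesion receptor known from the epididymis, was at 3.82 and 5.16 CPM with siControl and at 9.95 and 14.9 CPM with siTead1/4 in C2C12 cells at day 3, and at 4.85 and 7.18 against 2.75 and 4.23 CPM in PMs. The siTead1/4 libraries were the higher ones in C2C12 cells and the lower ones in PMs, without overlap in either. By edgeR without the block neither effect passed alone (1.44 with adjusted p = 0.0955 in C2C12 cells, and -0.80 with 0.192 in PMs). DESeq2 and the replicate block each called the effect in C2C12 cells. The difference was -2.26 (adjusted p = 0.0412). It was lost with only its own 8 libraries and in 7 of the 8 fits without 1 of them, where it ranged from -2.61 to -1.92. The exception was C2C12 siTead1/4 replicate 1.

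The second comparison followed the receptors through differentiation of the siControl cells. In C2C12 cells 20 of 79 rose and 13 fell at day 3 against day 0 (25.3% and 16.5%, against 16% and 12.7% of all genes), and 20 rose and 15 fell at day 6 (25.3% and 19%, against 17.1% and 14%). In PMs 24 of 87 rose and 19 fell at day 3 (27.6% and 21.8%, against 17.5% and 14.9%), and 25 rose and 17 fell at day 6 (28.7% and 19.5%, against 20.2% and 15.3%). Whether receptor genes changed more often than others was not tested.

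Among adenosine receptors, Adora1 rose in both cell types. Its C2C12 siControl libraries were at 0.141 and 0.0355 CPM at day 0 and at 18.1 to 24.1 CPM on the later days, a change of 8.01 ± 0.55 at day 3 (adjusted p = 5.81e-06), and in PMs it changed by 1.66 ± 0.16 (9.41e-06). Mybph, the gene on the opposite strand, changed by 9.03 and 2.32 in the same comparisons. Adora2b, the low-affinity Gs-coupled adenosine receptor, went opposite ways: from 3.71 and 6.06 to 16.1 and 13.1 CPM in C2C12 cells at day 3, and from 29.9 and 30.2 to 5.72 and 5.91 CPM in PMs. The changes were 1.53 ± 0.38 (adjusted p = 0.0101) and -2.42 ± 0.19 (2.31e-06), so that the cell type with the higher level at day 0 had the lower one at day 3.

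Of the 5 lysophosphatidic acid receptors tested, 4 fell in PMs at both day 3 and day 6 and only Lpar2 fell in C2C12 cells. Falls were called for 14.9% and 15.3% of all genes in PMs at days 3 and 6, and for 12.7% and 14% in C2C12 cells. Lpar2 was at 8.45 and 6.06 CPM in PMs at day 0, 1.35 and 1.39 at day 3, then 1.03 and 1.21 at day 6, and at 5.35 and 4.14, 0.991 and 0.708, and 0.597 and 0.468 CPM in C2C12 cells. The changes at day 3 were -2.46 ± 0.24 in PMs (adjusted p = 1.01e-05) and -2.52 ± 0.43 in C2C12 cells (0.00122). In PMs Lpar3, Lpar4 and Lpar6 changed by -1.16, -1.81 and -1.38 at day 3 and by -1.95, -2.07 and -1.39 at day 6. Lpar1, the most abundant of the family per length, stayed between 55.1 and 69.5 CPM in the PM libraries and between 78.9 and 102 CPM in the C2C12 libraries with siControl, and was not called.

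Of the 4 sphingosine 1-phosphate receptors tested, 2 rose in PMs at each day, and in C2C12 cells 1 rose at day 3 and 1 rose and 1 fell at day 6. Rises were called for 17.5% and 20.2% of all genes in PMs at days 3 and 6. In C2C12 cells 16% and 17.1% rose, and 14% fell at day 6. S1pr1 in PMs rose from 7.03 and 4.76 CPM at day 0 to 32.4 and 41 at day 3 and 22.8 and 36.5 at day 6, a change of 2.57 ± 0.33 at day 3 (adjusted p = 7e-05). In C2C12 cells it was at 11.4 and 13.1, 21.7 and 18.2, and 9.75 and 12.5 CPM and was not called. S1pr5 was at 3 counts or fewer in both PM libraries of day 0 and stood at 0.0842 and 0.329 CPM at day 3 and 0.776 and 1.6 CPM at day 6, a ratio of 98.0 to day 0 with a counting interval (exact Clopper-Pearson, 95%, counting error only) of 17.0 to 3923. In C2C12 cells it rose by 3.76 ± 0.53 at day 3 (adjusted p = 0.000411), from 0.113 and 0.0355 to 0.802 and 1.15 CPM.

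Of the 4 protease-activated receptors, 2 rose at day 3 and 3 at day 6 in PMs, and 1 rose and 1 fell at each day in C2C12 cells. Among all genes 17.5% and 20.2% rose in PMs at days 3 and 6. In C2C12 cells 16% and 17.1% of all genes rose, and 12.7% and 14% fell. F2rl1 (PAR2, opened by trypsin-like proteases) was at 2.18 and 3.46 CPM at day 0, 10.9 and 7.53 at day 3, then 26.5 and 18.7 at day 6, changes of 1.66 and 2.94 ± 0.30 (adjusted p = 0.000673 and 1.22e-05), whereas its C2C12 libraries stayed between 0.405 and 1.13 CPM. F2rl3 (PAR4, a second thrombin receptor) rose in both, by 2.70 ± 0.48 in PMs (adjusted p = 0.000714) and 1.65 ± 0.57 in C2C12 cells (0.0421) at day 3. F2rl2 (PAR3) fell by 2.09 in C2C12 cells at day 3 and rose by 1.98 in PMs at day 6. F2r itself was not called, at 286 and 204 CPM at day 0 and 149 and 201 CPM at day 6 in C2C12 cells and at 141 and 162 and then 165 and 163 CPM in PMs.

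Of the aminergic receptors, Adra1b, a Gq-coupled alpha-1 receptor, fell in both cell types at day 3, from 21.5 and 20.8 to 4.49 and 4.3 CPM in PMs and from 2.5 and 3.66 to 0.566 and 0.911 CPM in C2C12 cells. Adrb1, the main beta receptor of the heart, had no count in either PM library of day 6 and was at least 4.09-fold lower than at day 0, where it was at 0.487 and 0.31 CPM. Chrm3 rose in PMs from 0.0848 and 0.169 CPM at day 0 to 1.1 and 1.96 at day 6, a change of 3.54 ± 0.54 (adjusted p = 0.000221), and had at most 1 count in each C2C12 siControl library. Htr1b, a Gi-coupled serotonin receptor, fell by 3.07 ± 0.53 in PMs (adjusted p = 0.000542) and 2.24 ± 0.69 in C2C12 cells (0.0262) at day 3, and the long non-coding RNA that covers 66.9% of its exon length on the opposite strand (D430036J16Rik) changed by -5.07 and -1.71. Htr2b rose in C2C12 cells from 0.225 and 0.142 to 12.3 and 10.4 CPM at day 3, a change of 5.94 ± 0.39 (adjusted p = 5.05e-06), and fell in PMs from 2.42 and 4.93 to 1.88 and 1.29 CPM, a change of -1.26 ± 0.36 (0.0114).

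Of the 18 adhesion receptors, not all of which passed the filter on low counts, 4 rose and 3 fell in C2C12 cells at day 3. In PMs 2 rose and 3 fell. Among all genes 16% rose and 12.7% fell in C2C12 cells, and 17.5% and 14.9% in PMs. Gpr97, known from neutrophils, was at 105 and 118 CPM in C2C12 cells at day 0, 16.8 and 18 at day 3, then 14.7 and 11.9 at day 6. In PMs it was at 20.3 and 23.3 CPM at day 0, 0.14 and 0.202 at day 3 and 0 in both libraries of day 6. It fell in both cell types with no overlap between day 0 and later days, by 2.72 ± 0.19 in C2C12 cells (adjusted p = 6.55e-06) and 7.01 ± 0.42 in PMs (9.88e-07) at day 3, and at day 6 in PMs it was at least 224-fold lower. Gpr56, whose gene lies 3.5 kb from Gpr97 on chr8, did not follow it: it rose by 1.09 ± 0.29 in C2C12 cells at day 3 (adjusted p = 0.0129). Gpr123, a brain-enriched adhesion receptor, fell in PMs from 3.05 and 4.03 to 0.252 and 0.227 CPM at day 3, a change of -3.92 ± 0.46 (adjusted p = 3.63e-05), and was at 2.13 and 1.04 CPM at day 6. Gpr133 rose in C2C12 cells by 4.48 ± 0.56 (adjusted p = 0.0002), from 0.394 and 0.213 to 8.66 and 5.02 CPM.

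Several orphan receptors rose, some of them from near 0. Gpr20, a Gi-coupled orphan receptor, had 0 and 0.0355 CPM in C2C12 cells at day 0, 6.44 and 6.42 at day 3, then 14.6 and 12.9 at day 6, ratios of 295 (interval 81.3 to 2442) and 641 (177 to 5302) to day 0. In PMs it rose from 1.72 and 2.45 to 12.5 and 15.6 CPM at day 3, a change of 2.71 ± 0.50 (adjusted p = 0.000882). Gpr146, studied in the liver for its part in cholesterol metabolism, rose in PMs from 4.2 and 3.07 CPM to 69.5 and 58.4 at day 3, then 56 and 61 at day 6. The change of 4.07 ± 0.17 (adjusted p = 8.02e-08) was the largest fitted rise of the 87 receptor genes in PMs at day 3, and in C2C12 cells it was 2.77 ± 0.28 (4.96e-05). Gpr157 rose in PMs from 4.89 and 4.2 to 43.4 and 39.5 CPM, by 3.13 ± 0.24 (adjusted p = 2.06e-06). Gpr153, an orphan receptor of unknown ligand, rose in C2C12 cells from 5.26 and 6.48 to 49.4 and 72.1 CPM, by 3.33 ± 0.46 (adjusted p = 0.0004). Gpr37 rose in C2C12 cells from 1 count to 106 at day 3, a ratio of 106 (interval 18.6 to 4226), and its relative Gpr37l1 from 0 to 0.212 and 0.202 CPM, at least 3.01-fold, and to at least 7.26-fold at day 6. Gpr143, the melanosomal receptor, had no count at day 0 and 0.443 and 0.334 CPM at day 6 in C2C12 cells, at least 5.64-fold higher.

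Falls among the orphan receptors included that of Gpr149 in C2C12 cells, which went from 0.732 and 0.835 CPM to 0.0236 and 0 at day 3, a ratio of 73.0 (interval 12.7 to 2922). Gpr45, in PMs, fell by 2.56 ± 0.52 (adjusted p = 0.00165) from 0.445 and 0.648 to 0.0842 and 0.101 CPM. Gpr39, a zinc-sensing receptor, fell in C2C12 cells from 9.91 and 10.4 to 3.68 and 2.25 CPM and rose in PMs from 3 counts at day 0 to 0.97 and 0.717 CPM at day 6, a ratio of 23.3 (interval 7.53 to 116). It shares 39.9% of its exon length with Lypd1 on the opposite strand, whose group means were 0.138 to 0.438 CPM.

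Of the 74 receptor genes tested in both cell types, 10 rose in both at day 3, which is 52.6% of the 19 that rose in C2C12 cells and 52.6% of the 19 that rose in PMs. For all genes the shares were 56.7% and 55.7%. Among them were Adora1, F2rl3, S1pr5, Gpr20, Gpr137c, Gpr146, Gpr153, Gpr155 and Gpr157. A fall in both was called for 5, Lpar2, Htr1b, Adra1b, Gpr97 and Gpr137b, or 41.7% of 12 and 29.4% of 17, against 66.2% and 54.9% of all genes. At day 6, 11 rose in both (61.1% of 18 and 50% of 22) and 7 fell in both (50% of 14 and 46.7% of 15), against 61.9% and 56.6% of the rises and 66.2% and 59.3% of the falls of all genes. Opposite calls were made for Adora2b, Htr2b and Gpr39 at day 3 and for Adora2b, F2rl2 and Gpr39 at day 6, which is 4.05% of the 74 at either day, against 0.878% and 1.12% of all genes. The difference between the cell types in the course of differentiation was not itself tested.

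**Figure D5:**
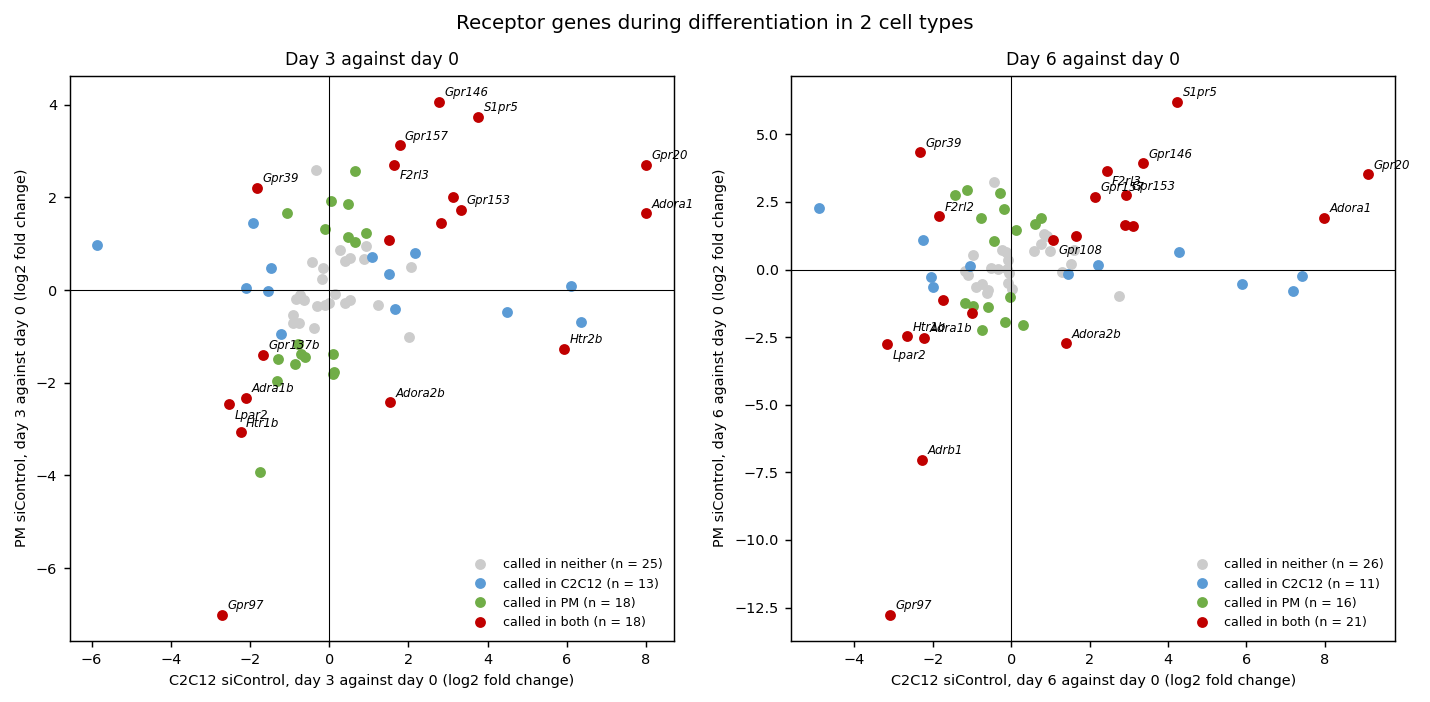
Log2 fold change of each of the 74 receptor genes tested in both cell types, C2C12 siControl on the x axis and PM siControl on the y axis, for day 3 (left) and day 6 (right) against day 0, coloured by where the gene was called. Adora2b and Gpr39 lie in opposite-sign quadrants at both days, and Gpr97 lies furthest below 0 on the PM axis, where its day 6 value is a fitted one against libraries without counts.

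The third comparison set siControl PMs against siControl C2C12 cells on the same day, and so also C57/B6 against C3H. At day 0, 27 of 92 receptor genes were higher in PMs and 19 lower, against 16.3% and 10.5% of all genes. At day 3 there were 23 and 22, against 17.2% and 12.6%, and at day 6 23 and 17, against 15.7% and 9.22%.

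Higher in PMs at day 0 were Gpr37 (8.18 and 7.91 against 0 and 0.0178 CPM), with a ratio of 741 (interval 132 to 29294), and Adora1 (8.71 and 11.2 against 0.141 and 0.0355 CPM), by 6.95 ± 0.44 (adjusted p = 2.25e-09). Gpr20 was higher with a ratio of 93.3 (interval 25.4 to 776). Adra2c, a Gi-coupled alpha-2 receptor, had no count in any C2C12 siControl library and 0.194 to 0.451 CPM in the PM ones, at least 5.27-, 5.51- and 2.88-fold higher at days 0, 3 and 6. The orphan receptor Gpr45 was absent from the C2C12 counts in the same way and at least 7.93-fold higher in PMs at day 0, and Gpr37l1 at least 3.63-fold. Chrm3 was at least 8.13-fold higher in PMs at day 3 and had a ratio of 125 at day 6 (interval 21.9 to 4984). At day 3 the proton-sensing receptor family member Gpr132 was at least 3.31-fold higher, Gpr75 had a ratio of 34.2 (interval 5.65 to 1397) and Adra1a, an alpha-1 receptor, one of 23.2 (5.99 to 198). F2rl1 was higher by 5.52 ± 0.41 at day 6 (adjusted p = 2.85e-08), at 26.5 and 18.7 against 0.405 and 0.601 CPM, and Gpr123 and Gpr75 had ratios of 32.5 (12.3 to 122) and 26.6 (6.89 to 227) there.

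Lower in PMs throughout was Gpr126, an adhesion receptor required for Schwann cell myelination. It was at 72.6 and 80.1 CPM in C2C12 cells and 1.7 and 2.39 CPM in PMs at day 0, at 75 and 71 against 4.66 and 5.89 at day 3, and at 51.5 and 40.6 against 10.2 and 5.77 at day 6. The libraries did not overlap at any day, and the differences were -5.23 ± 0.34, -3.79 and -2.53 (adjusted p = 3.65e-09, 9.51e-08 and 5.94e-06). Htr7 was lower in PMs by 3.65, 5.19 and 3.28 (log2) at the 3 days, and the Gi-coupled receptor Htr1d by ratios of 12.2 (interval 3.06 to 106), 18.4 (4.82 to 157) and 5.65 (1.99 to 22.1). Gpr39 was lower at day 0 with a ratio of 282 (interval 96.2 to 1369), F2rl2 by 3.59 ± 0.58 (adjusted p = 9.38e-05) and Gpr137b by 3.09 ± 0.28 (1.65e-07). The last has a close paralogue in the table, Gpr137b-ps, between which reads may be split. Gpr97 was lower by 6.63 ± 0.36 at day 3 (adjusted p = 1.7e-09) and at least 137-fold at day 6. At day 6 Gpr30, a membrane oestrogen receptor, was lower by 2.73 ± 0.36 (adjusted p = 1.8e-05), Gpr143 at least 3.99-fold and Adrb1 at least 1.43-fold. The endothelial gene sum was also higher in PMs than in C2C12 cells (3.21 to 17.6 against 0.256 to 1.53 CPM), as were the pericyte and smooth muscle sum (131 to 345 against 51.1 to 86.6 CPM) and, in the siControl libraries of day 0, the Schwann sum (146 and 135 against 8.27 and 8.76 CPM). Single genes carried much of the last 2 sums. In siControl counts of day 0, not scaled for depth, Rgs5 had 2554 and 2846 in PMs against 1 and 8 in C2C12 cells. Abcc9 had 1518 and 1162 against 12 and 7, and Erbb3 6044 and 4390 against 201 and 363. Cnn1 went the other way, at 8 and 9 against 326 and 485. The part of such marker genes in these differences was not tested.

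The proteins that receive the signal were followed as lists of G-protein subunits, RGS proteins, receptor kinases and arrestins, effector enzymes and enzymes of ligand metabolism. Under siTead1/4 none of 78 tested was called by edgeR in C2C12 cells at any day, against 0.438%, 1.27% and 0.0457% of all genes at days 0, 3 and 6. Of the 78, 12, 18 and 6 had an unadjusted p under 0.05, against 10.5%, 14.2% and 6.95% of all genes. In PMs 6 of 86 rose and none fell at day 0, 8 rose and none fell at day 3, and 2 rose and 1 fell at day 6, against 2.6%, 3.3% and 0.743% of all genes called. The rises included 3 of 14 RGS genes at day 0 and 4 of 14 at day 3. Rgs14, which acts on Gi, had means of 0.395 CPM with siControl and 3.98 with siTead1/4 at day 0, 2.28 and 21.8 at day 3, then 2.84 and 13.1 at day 6, changes of 3.37, 3.24 and 2.21 (adjusted p = 0.00442, 0.00186 and 0.0353). Rgs2, which acts on Gq, had means of 2.33 and 6.89 CPM at day 0, a change of 1.55 (adjusted p = 0.0158). Rgs8 rose by 1.78 and 2.08 at days 0 and 3 (adjusted p = 0.0166 and 0.0342). Gnb3, a G-protein beta subunit, rose by 2.36, 2.24 and 1.19 at the 3 days (adjusted p = 0.00131, 0.000755 and 0.0387), and the gamma subunit gene Gng13 fell by 2.59 at day 6 (adjusted p = 0.0196), from a mean of 1.45 to 0.236 CPM. Sphk1, the kinase that makes sphingosine 1-phosphate, rose by 1.72 at day 0 (adjusted p = 0.00255), from a mean of 1.34 to 4.41 CPM. The remaining calls at days 0 and 3 were Adcy1, Adcy8, Gnai1, Sag and Rgs17, with log2 fold changes of 1.38 for Adcy1, 1.48 for Adcy8, 1.01 for Gnai1 and 1.12 for Sag. During differentiation of siControl PMs most of the RGS list fell, with 1 of 14 up and 10 down at day 3 and 3 up and 9 down at day 6. Among all genes 17.5% rose and 14.9% fell at day 3, and 20.2% and 15.3% at day 6. The median log2 fold changes of the list were -1.69 and -1.45 against 0.01 and 0.03 for all genes. In C2C12 cells 3 of 13 rose and 4 fell at day 3 and 2 rose and 6 fell at day 6, with medians of -1.05 and -1.12 against -0.01 at both days. There 16% of all genes rose and 12.7% fell at day 3, and 17.1% and 14% at day 6.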

How the data were processed

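Reads of 24 polyadenylated RNA libraries (TruSeq, not stranded) were, according to the submitters' processing notes, handled with CASAVA 1.8.2, TopHat2 2.0.10, Bowtie2 2.1.0, HTSeq 0.6.1 and DESeq2 1.8.1 on mm9. The annotation release and the counting mode are not given in the sources used here. The authors deposited 1 table with the raw read count of each gene in each library, and these counts were the values tested. They also deposited a normalised signal, which equals the counts divided by 1 size factor per library, and the same signal per kb of gene length. Both signals were used only to check how they were made. A further 36 columns, which belong to 12 libraries without an entry in the sample list, were not used.

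Counts were analysed with edgeR 4.0.16 in R 4.3.3: filterByExpr, TMM, glmQLFit and glmQLFTest, two-sided, with Benjamini-Hochberg adjustment over all genes tested. A gene was called at adjusted p under 0.05 and a log2 fold change over 1 in size. The 12 libraries of a cell type were fitted together for siTead1/4 and differentiation (15303 and 16144 genes), and all 24 for PMs against C2C12 cells and for the difference of the siTead1/4 effect (16926 genes). With 2 replicates per group the spread is pooled over groups, with a biological coefficient of variation of 0.242 in C2C12 cells, 0.150 in PMs and 0.202 over all. RPKM are CPM divided by the deposited gene length. A fold against libraries without counts is given as a bound from a floor of 3 counts per library, and against 3 counts or fewer as a ratio of counts with its 95% exact interval, both covering counting error only. In PMs same-numbered siTead1/4 and siControl libraries deviated together (correlations of 0.38, 0.41 and 0.50 at days 0, 3 and 6), a pairing seen in the data and not given by the labels, so counts with the replicate block are given beside the PM counts. The fitting script was tested on simulated data.

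Receptor genes and lists were chosen with earlier results of these data known. Named are the members called under siTead1/4, the 6 largest rises and falls of each other comparison, the 10 highest by RPKM, the highest of each family, and up to 3 called genes of each signalling list. Other receptors of a family were named after their values were seen. A few receptor genes that these rules select are counted in the totals and not reported here. Gene positions and exon overlaps come from GENCODE vM1 on NCBIM37 (mm9), where 142 of 144 members have the deposited start and end and 34 share exon bases with another gene. Promoters come from a RefSeq table on GRCm38.p6, matched by Ensembl ID or, where that gave none, by symbol or unique synonym. Alternatives were DESeq2 1.42.0 (Wald test), RLE size factors, no filter, a filter of 10 counts in every library, other sets of libraries, a replicate block, and leaving out each library.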

Additional observations from a re-analysis of the deposited data

Results flagged for a closer look

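By a direct test with edgeR, the siTead1/4 effect differed between the cell types for 2 receptor genes, both at day 3. For Adora1 the effect in PMs minus that in C2C12 cells was 2.25 (log2, adjusted p = 0.0082 by edgeR). The siTead1/4 libraries were lower than siControl in C2C12 cells, at 3.6 and 6.74 against 21 and 22.2 CPM, and higher in PMs, at 36 and 38.5 against 34.6 and 30.6 CPM. The difference for Mybph, which overlaps Adora1 on the opposite strand, was 2.26 (adjusted p = 0.0375), and its part in the Adora1 value was not tested. For Gpr64 the difference was -2.26 (adjusted p = 0.0412), with siTead1/4 libraries at 9.95 and 14.9 against 3.82 and 5.16 CPM in C2C12 cells and at 2.75 and 4.23 against 4.85 and 7.18 CPM in PMs. Single libraries far from their group could not be sought, since each group has 2.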

How the results depend on the processing

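Over the 211 values of receptor genes selected for naming and their 2128 values under alternatives, none reversed its direction, 1929 stayed on the same side of the threshold and 199 lost the call, 165 of these when 1 library was left out. The causes were not tested.

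The number of receptor genes called under siTead1/4 moved by more than 1.5 times as follows, with the number called over all genes in brackets. In C2C12 cells at day 0 (0 called, 67 over all genes) it was 1 with all 24 libraries in 1 fit (245) and 1 with at least 10 counts in every library (79). There it was 2 with DESeq2 (256), 4 without a filter (480) and 1 with the replicate block (82). At day 3 (5 called, 195 over all genes) it was 11 with all 24 libraries (690), 2 with at least 10 counts (48) and 11 with DESeq2 (603). There it was 16 without a filter (1055) and 0 with its own libraries alone (7). At day 6 (0 called, 7 over all genes) it was 3 with all 24 libraries (88), 4 with DESeq2 (143) and 9 without a filter (387). In PMs at day 0 (5 called, 420 over all genes) it was 2 with all 24 libraries (204) and 8 with the replicate block (586). At day 3 (4 called, 532 over all genes) it was 2 with all 24 libraries (312), 7 without a filter (804) and 8 with the replicate block (792). At day 6 (1 called, 120 over all genes) it was 3 with DESeq2 (224) and 5 without a filter (335). There it was 0 with only its own libraries (0) and 4 with the replicate block (290). For the difference of the effect at day 3 (2 called, 212 over all genes) it was 1 with at least 10 counts (115) and 5 with DESeq2 (494). There it was 6 without a filter (853), 1 with only its own libraries (122) and 4 with the replicate block (327). For the difference at day 6 (0 called, 6 over all genes) it was 1 with DESeq2 (60), 2 without a filter (146) and 1 with the replicate block (34).

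With a minimum of 10 counts in every library, under which fewer genes are tested, there were 16 and 18 calls against 33 and 35 in C2C12 differentiation at days 3 and 6, and 20, 19 and 15 against 46, 45 and 40 in PMs against C2C12 cells. Over all genes the calls were 3015 and 3335 against 4390 and 4761 in C2C12 differentiation. In PMs against C2C12 cells they were 2096, 2353 and 1662 against 4534, 5044 and 4210. Without 1 library the siTead1/4 counts ranged from 0 to 4 in C2C12 cells at day 3, and from 1 to 3, 1 to 4 and 0 to 2 in PMs at days 0, 3 and 6. They ranged from 0 to 4 for the difference at day 3, with 0 without PM siControl replicate 2, and from 21 to 23 for C2C12 differentiation at day 3, with 21 without siControl replicate 1 of day 3. In PMs the lowest counts came without siControl replicate 1 at day 0, without siControl replicate 1 or siTead1/4 replicate 2 at day 3, and without siControl replicate 1 or siTead1/4 replicate 1 at day 6.

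In C2C12 cells the correlation of same-numbered deviations between siTead1/4 and siControl was -0.13, 0.09 and 0.47 at days 0, 3 and 6. At days 0 and 3 the C2C12 samples thus showed little or no pairing by number. The day 6 value lay among the PM values of 0.38, 0.41 and 0.50, so a pairing was seen there too. With the replicate block no receptor gene was called in C2C12 cells at day 6, as without it. The replicate block moved no count of calls by over 1.5 times other than those given.

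Receptor genes near 3 counts cannot be ranked. Libraries without strand cannot separate reads in the exon bases that Adora1, Htr1b and Ptger1 share with genes on the opposite strand.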

Other observations

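In PMs 6 of the 87 tested receptor genes were higher in replicate 1 than in replicate 2 in all 6 pairs of libraries of the same siRNA and day, and 11 were higher in replicate 2, which is 6.9% and 12.6%, against 6.84% and 6.08% of all genes. The 6 were Gpr17, Gpr149, Gpr116, Htr2a, Htr1b and Gpr157, with mean log2 ratios of replicate 1 to replicate 2 of 1.90 for Gpr17, 1.81 for Gpr149, 1.53 for Gpr116, 1.11 for Htr2a, 0.67 for Htr1b and 0.33 for Gpr157. Gpr116, an adhesion receptor known from lung and vessel endothelium, was at 1.36 to 2.52 CPM in the 6 libraries of replicate 1 and at 0.31 to 1.34 CPM in those of replicate 2. The 8 endothelial genes summed to 5.66 to 17.6 CPM and to 3.21 to 5.53 CPM in the same libraries, and their part in the receptor values was not tested. In C2C12 cells 8 of 79 were higher in replicate 1 and 8 in replicate 2 in all 6 pairs, 10.1% each against 3.53% and 3.04% of all genes, among them Htr1b, which was lower in replicate 1 there (mean log2 ratio -1.004).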
